A study of Vicia sativa with 8 samples.

Results

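The genes described here are those of common vetch (Vicia sativa) whose best protein match names a component of small RNA pathways or of DNA methylation. A member is a unigene, one assembled transcript sequence, whose best match in the nr protein database carries the word argonaute, dicer-like, RNA-dependent RNA polymerase, chromomethylase, cytosine-5, DNA methyltransferase or demeter. Of 71553 unigenes with a read, 81 were members. They comprised 31 argonaute, 16 dicer-like, 10 RNA-dependent RNA polymerase, 6 chromomethylase and 7 demeter unigenes, and 11 other unigenes matched a DNA methyltransferase.

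Plants guide gene silencing with small RNAs. RNA-dependent RNA polymerases copy a transcript into double-stranded RNA, dicer-like enzymes cut it into short duplexes, and argonaute proteins carry one strand to matching RNA or DNA. Chromomethylases and other DNA methyltransferases place methyl groups on cytosine, partly at sites chosen by small RNAs, and glycosylases of the DEMETER family remove methylated cytosine, for which DEMETER itself is best known in the central cell of the Arabidopsis ovule.

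Expression was measured by RNA-Seq in the cultivar Lanjian 3, and no treatment or genetic change is named for any organ. Carpels, stamens, sepals and the dorsal, lateral and ventral petals were taken at floral stage 12 from greenhouse plants of about 45 days, and leaves and roots from seedlings of 2 weeks, so that a difference between floral and vegetative organs cannot be told apart from one of plant age or of growth before harvest. Each of the 8 organs had 1 library, whose uniquely aligned reads came to 93.8% to 110.1% of the median library, so there is no replicate check, no test across organs was possible, and all differences are between libraries. Levels of a unigene are given as RPKM, the reads per kilobase of unigene and 1000000 uniquely aligned reads, and sums over unigenes as RPM, which leaves out the length. The 95% intervals, exact Poisson for a level and exact binomial for a ratio of levels, cover counting error only. In these whole organs, fewer cells of a type and less RNA per cell cannot be told apart.

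The organ labels were checked against marker lists. Unigenes for chlorophyll a/b-binding proteins summed to 6432 RPM in leaves and 58.1 in roots. The B-function floral regulators PISTILLATA (Unigene20940) and APETALA3 (Unigene63356) lay between 120 and 779.9 RPKM in petals and stamens and at most at 7.74 RPKM elsewhere. Unigenes with pollen in their description summed to 3278 RPM in stamens and 654 to 1612 in the other organs. The words for C-function regulators, which specify stamens and carpels, matched 11 unigenes that included AP1, SEP1 and AGL8, whose levels were not limited to those organs. Their AGAMOUS match Unigene53994 had 146 RPKM in stamens and 171 in carpels and at most 8.40 elsewhere, and the AGAMOUS-like Unigene45078 had 435 in stamens and 97.4 in carpels and at most 5.91 elsewhere. A list of root words did not single out roots (370.1 RPM, against 177 to 373 elsewhere), so it does not check that organ.

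Many members are short. Their median length was 420 bp, and 44 of the 81 had at least 100 reads over the 8 libraries (54.3%, against 62.9% of all unigenes). The other 37 had too few reads for a profile and enter only the counts that say so. The 81 members shared 60 best proteins, and 38 members had the same best protein as another member. Members of such a group may be pieces of one gene, copies, or different genes. Only 1 best match came from a legume (the pea AGO2 matched by Unigene17620), the E-value reached 1e-05, and 28 members had one of 1e-20 or below. A family name here therefore means the best match and not an assigned ortholog. Reads were counted only where they aligned uniquely, so near-identical copies can lose reads, and no use of strand is stated.

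Few members were enriched in an organ. A unigene was called enriched in an organ when its RPKM was over 2 times the highest of the other 7 organs and its Z-score over their mean and SD exceeded the threshold of the study. It was called downregulated when its RPKM was under 0.5 times that highest value with a Z-score below -1.5. Only 5 of the 81 members were enriched in any organ, against 23.5% of all unigenes, while 31 were downregulated in at least 1 organ, against 34.0% of all unigenes. The enriched members were 2 in carpels (5.61% of all unigenes were called there) and 3 in roots (6.18%), and none was enriched in sepals (1.2%), dorsal (0.646%), lateral (0.608%) or ventral petals (1.29%), stamens (3.93%) or leaves (4.03%). Both carpel calls rested on under 10 reads. Rescaled by TMM factors, which correct for the make-up of a library, 7 members were enriched in carpels, where 8.01% of all unigenes then were.

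Stamens stood out by low levels. There 17 of the 81 members (21.0%) were downregulated, against 5.39% of all unigenes, and among members with at least 100 reads 14 of 44 (31.8%), against 5.7% of such unigenes. In carpels the order was the other way, with 9 of 81 members (11.1%), against 17.5% of all unigenes, and 7 of 44 (15.9%), against 21.8%. Leaves had 3 downregulated members (8.39% of all), roots 3 (4.29%), dorsal petals 2 (0.577%), lateral petals 1 (0.746%), and sepals (0.692%) and ventral petals (0.766%) had 0. Judged against the lowest of the other organs instead of the highest, 7 of the 81 members (8.64%) were downregulated in stamens, against 2% of all unigenes, and 5 (6.17%) in carpels, against 9.18%. By family, the 14 stamen calls were 7 of 14 dicer-like, 4 of 13 argonaute, 2 of 6 other DNA methyltransferase and 1 of 4 demeter unigenes.

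The organ of the extreme level gave a like picture. Stamens held the lowest RPKM of 18 of the 44 members (40.9%, against 11.4% of all unigenes with at least 100 reads) and the highest of none (14.8%). Roots held the highest RPKM of 19 members (43.2%, against 19.5%), and carpels of 10 (22.7%, against 16.6%). Dorsal petals held the highest of 5 members (9.65% of all), sepals of 4 (8.78%), leaves of 3 (12.3%), ventral petals of 3 (6.99%) and lateral petals of none (11.4%). Leaves held the lowest of 11 members (24.2% of all) and carpels of 9 (32.1%), dorsal petals (4.25%) and roots (15%) of 2 each, lateral (6.14%) and ventral petals (2.99%) of 1 each, and sepals (3.94%) of none. The pollen list was high in the same stamen library, at 3278 RPM, and its part in the low member levels was not tested.

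**Figure D1:**
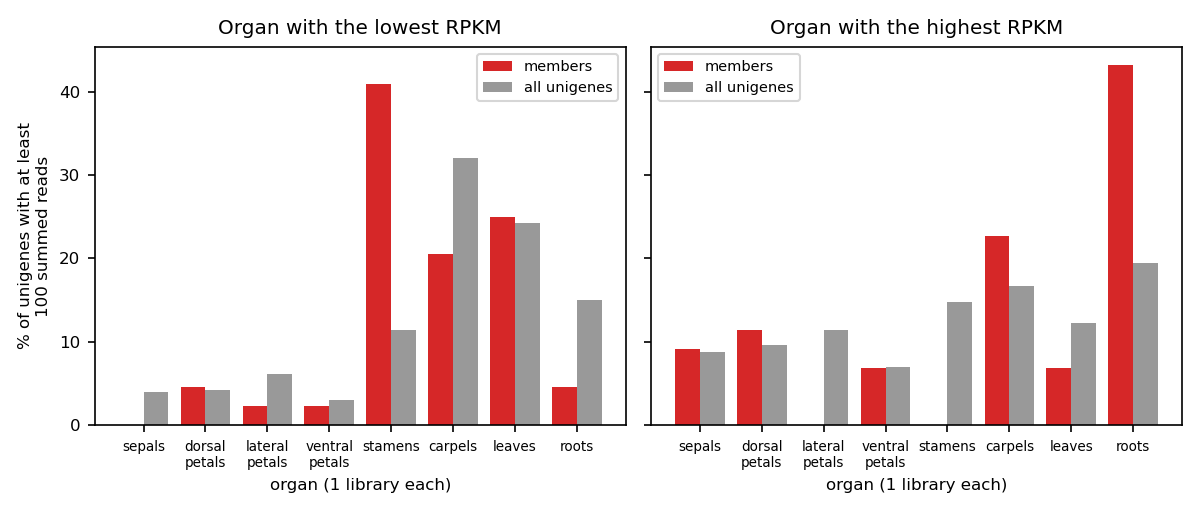
Percentage of unigenes with at least 100 summed reads (vertical axis) whose lowest RPKM (left panel) or highest RPKM (right panel) fell in each of the 8 organs, with 1 library per organ; red bars are the 44 members and grey bars all 44987 such unigenes. Stamens held the lowest level of 40.9% of members and 11.4% of all unigenes, and roots the highest level of 43.2% of members and 19.5% of all.

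**Figure D2:**
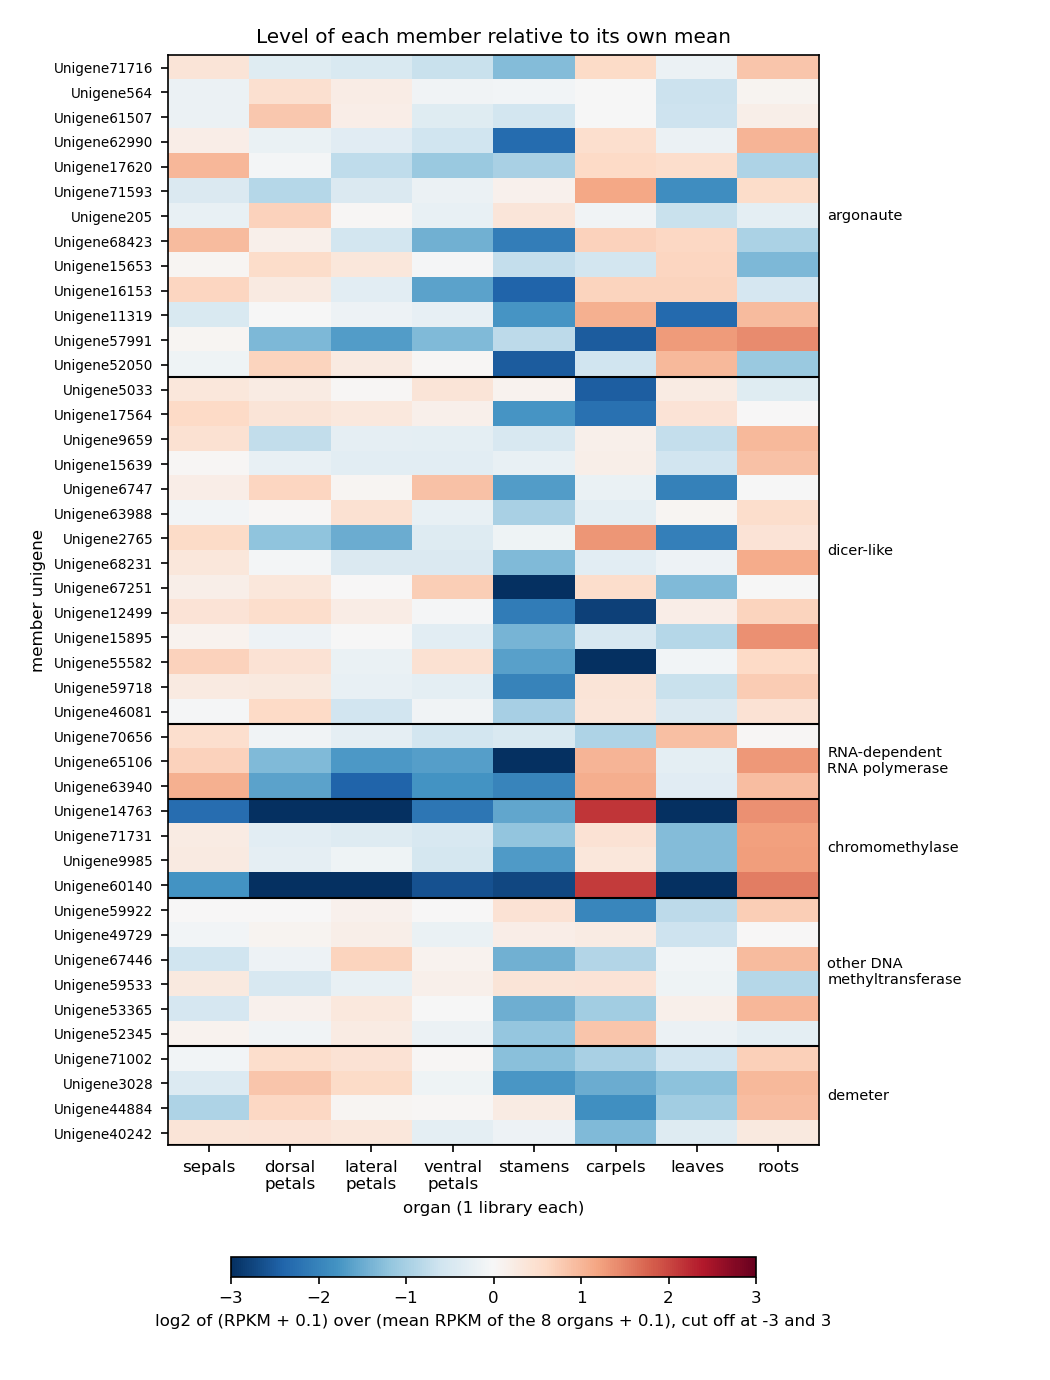
Level of each of the 44 members with at least 100 summed reads (rows, by family and falling read number) in each organ (columns, 1 library each), as the log2 ratio to the mean over the 8 organs of the same unigene, after adding 0.1 RPKM. Red is above and blue below that mean; the 2 darkest red cells are the chromomethylases Unigene14763 and Unigene60140 in carpels, and blue cells crowd the stamen column.

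Among the 6 families the largest contrast between organs was that of the chromomethylases, which methylate cytosine outside the CG context at chromatin marked by histone H3 lysine 9 methylation. Summed over the 6 unigenes, the family took 414 RPM in carpels and 311 in roots, and 21.7 to 68.3 in the other 6 organs. This was a 19.1-fold range between carpels and leaves, while all 81 members together ranged 2.57-fold between roots and stamens.

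Of the family's reads, 58.2% came from Unigene14763 (2468 bp, 3255 reads, best match a chromomethylase of Arabidopsis arenosa). Its RPKM was 131 in carpels and 76.1 in roots, against 9.96 in stamens, 5.93 in sepals, 1.89 in leaves and, among the petals, 6.46 in ventral, 2.32 in dorsal and 2.06 in lateral ones. Carpels and roots thus stood clear of every other library, and carpels were above roots by 1.72-fold (1.59 to 1.85). The ratio was 69.1 for carpels over leaves (46.6 to 107), 40.2 for roots over leaves (27.1 to 62.4) and 13.1 for carpels over stamens (11.0 to 15.8). Unigene60140 (474 bp, 402 reads) had the same shape, with 80.7 RPKM in carpels and 54.9 in roots and 1.10 to 5.37 elsewhere. With the 2 shorter unigenes that share its best protein, Unigene14763 gave a summed entry of 99.3 RPKM in carpels and 59.2 in roots, against 1.72 to 8.15 in the other organs.

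A level in both carpels and roots above 2 times every other organ was found for these 2 of the 44 members, and for 3% of all unigenes with at least 100 reads, a comparison that was chosen after the values were seen. Lists of dividing-cell genes were highest in carpels and next in roots, but by unlike margins. The 15 unigenes for MCM proteins, subunits of the helicase that opens DNA for replication, summed to 524 RPM in carpels and 384 in roots, and to 32.3 to 100.1 elsewhere, and 32 of 62 dividing-cell unigenes with at least 100 reads were high in both organs. The 40 core histone unigenes reached 6382 RPM in carpels and 1501 in roots, against 269 to 775 in the other organs. The histone words also matched 8 methyltransferases, which were left out of the core histone and the dividing-cell list. Ribonucleotide reductase unigenes summed to 860 RPM in carpels but only 81.7 in roots, against 65.2 in stamens. High in both organs were 6 of 7 MCM and 23 of 38 core histone unigenes with at least 100 reads. Of the 6 ribonucleotide reductase unigenes, 0 were high in both organs. Among unigenes for DNA polymerases alpha, delta and epsilon, 3 of 11 with at least 100 reads were high in both. The part of dividing cells in the chromomethylase levels was not tested.

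The other chromomethylases differed in shape. Unigene71731 (2007 bp, best match chromomethylase 3 of Arabidopsis thaliana) peaked in roots at 34.0 RPKM, followed by carpels at 19.5 and sepals at 17.1, and had 10.3 to 11.7 in the petals, 6.31 in stamens and 5.77 in leaves. Roots exceeded carpels by 1.74-fold (1.47 to 2.07), while carpels and sepals did not differ beyond counting error (1.14-fold, 0.938 to 1.38). Unigene9985 ran in parallel, with 32.5 RPKM in roots, 17.1 in carpels, 16.3 in sepals, 9.34 to 12.5 in the petals, 5.44 in leaves and 4.13 in stamens.

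**Figure D3:**
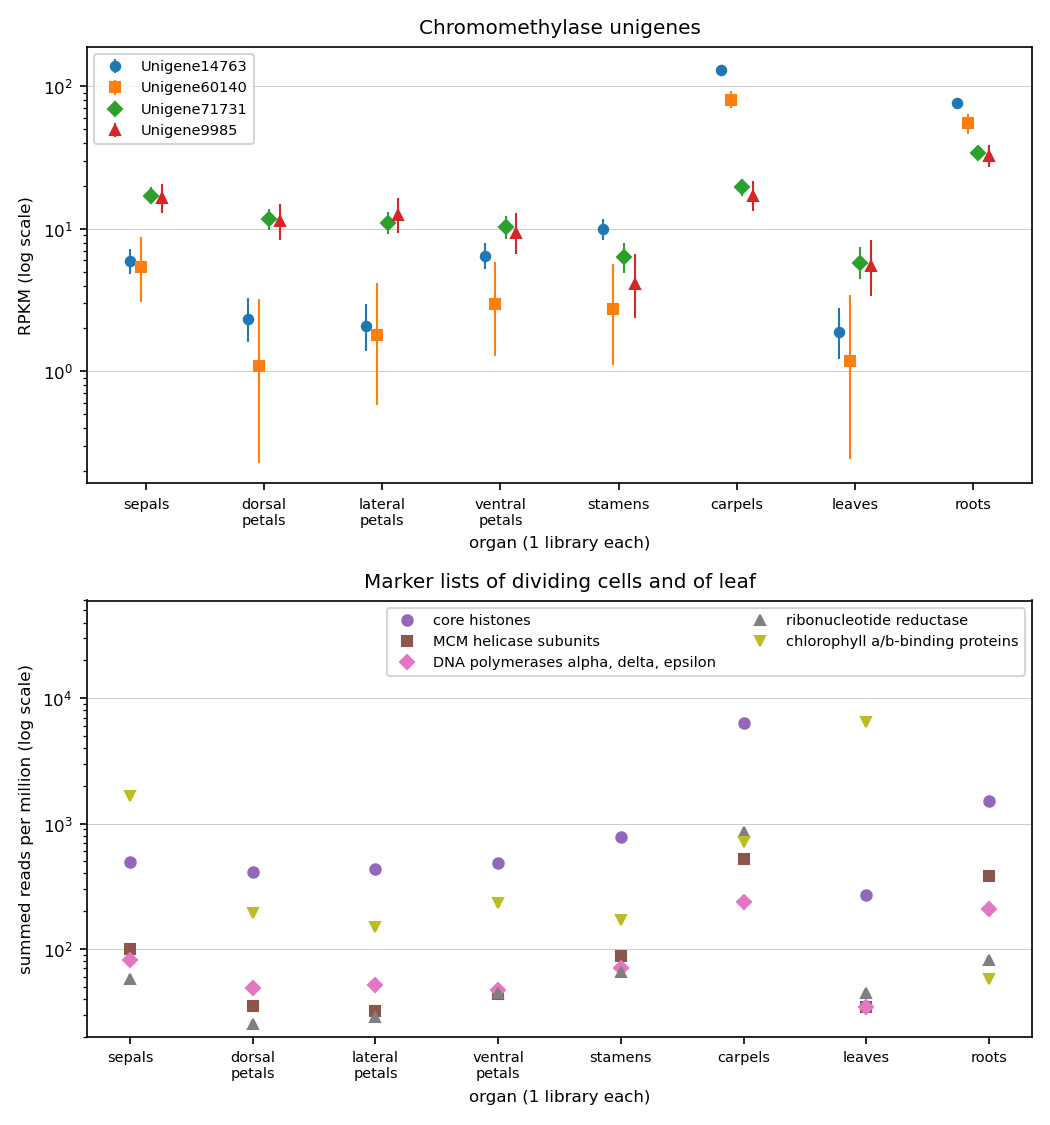
Upper panel, RPKM on a log axis of 4 chromomethylase unigenes in each organ (1 library each) with exact 95% Poisson intervals; lower panel, summed RPM on a log axis of dividing-cell lists and of chlorophyll a/b-binding proteins. Unigene14763 reached 131 RPKM in carpels and 76.1 in roots and at most 9.96 elsewhere, and MCM unigenes summed to 524 RPM in carpels and 384 in roots.

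Outside the chromomethylases, 11 unigenes named a DNA methyltransferase, and the 6 with at least 100 reads had weak matches or matched an associated protein. Unigene59922 (468 bp, 2188 reads) held 49.3% of the reads of this group, but its match, an algal cytosine-C5 methyltransferase, had an E-value of 1e-05. Its RPKM was 26.3 in carpels, which met the downregulated rule, against 59.5 in leaves, 102 to 112 in sepals and petals, 138 in stamens and 170.2 in roots. The carpel library lay 2.26-fold (1.68 to 3.06) under the next lowest, that of leaves. Unigene53365, matching a maize DNA methyl transferase, had 5.83 RPKM in stamens, where it was called downregulated, against 7.86 to 32.2 elsewhere. Unigene67446, whose match is a tobacco DNA methyltransferase, had 29.8 RPKM in roots, its highest, and 5.63 in stamens, its lowest, without a call.

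Unigene59533, with an algal match, was the only one of these called downregulated in roots, at 8.21 RPKM against 10.6 to 19.6 elsewhere. Unigene49729 and Unigene52345 matched proteins associated with DNA methyltransferase 1, which are not methyltransferases themselves. The first was nearly even, between 27.8 and 50.6 RPKM in all organs, and the second was called downregulated in stamens, at 6.61 RPKM against 12.2 to 26.6 elsewhere. Under 100 reads remained Unigene47704, a match to the maintenance methyltransferase MET1 named here after its values were seen, with 26.5 RPKM in roots, 13.9 in carpels and 0 to 4.9 in the other organs, from 90 reads in all.

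Demeter unigenes, unlike the chromomethylases, were low in carpels, and stamens were low as well. The 7 unigenes took 36.8 RPM in carpels (31.8 to 42.2) and 45.1 in stamens (39.6 to 51.1), where the intervals overlap, and 147 in roots, the highest, while dorsal petals followed roots with 129.8. With TMM factors carpels (44.8) and stamens (45.1) were nearly equal. Of the 4 with at least 100 reads, 2 were lowest in stamens and 2 in carpels. Unigene71002 (1417 bp, 2121 reads) had 13.5 RPKM in stamens, where it was downregulated, 16.5 in carpels, 21.9 in leaves, 30.6 in sepals and 52.9 in roots, while its petals had 46.8 (dorsal), 43.9 (lateral) and 33.3 (ventral). Stamens and carpels did not differ beyond counting error (carpels over stamens 1.22, 0.931 to 1.59). Its match to DEMETER had an E-value of only 9e-06.

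Unigene3028, with the same best protein, had 3.38 RPKM in stamens, 4.09 in carpels, 4.93 in leaves, 8.68 in sepals, 10.7 to 20.7 in the petals and 23.0 in roots. The summed entry of the pair was 7.99 RPKM in stamens, 9.71 in carpels and 36.6 in roots. Carpels were called downregulated for the other pair. Unigene44884, matching DEMETER-like protein 2, had 10.3 RPKM in carpels, against 18.1 in leaves, 19.5 in sepals, 38.2 to 57.3 in petals, 44.3 in stamens and 71.3 in roots. Unigene40242, matching DML3, had 13.7 RPKM in carpels and 26.4 to 46.0 in the other organs. The ratio of carpels to stamens was 0.231 (0.122 to 0.411) for the first and 0.444 (0.240 to 0.793) for the second. ROS1, the related glycosylase that trims methylation in vegetative tissue of Arabidopsis, was matched by 3 unigenes of unlike profile. Unigene57436 (694 reads, E-value 3e-08) was downregulated in both carpels (15.4 RPKM) and stamens (17.9), against 27.3 to 54.6 elsewhere. Unigene14563 (132 reads, E-value 6e-36) was instead enriched in carpels, at 14.4 RPKM against 2.06 to 5.57 elsewhere, and Unigene60044 had 31 reads in all.

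Argonautes carried more reads than any other family, 25603 of 48440 over all members. They took 775 RPM in roots and 759 in carpels, 666 in sepals and 322 in stamens, the lowest. With TMM factors carpels (924) came before roots (718), and stamens remained lowest (323).

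The most abundant member of all was Unigene71716 (1974 bp, 9836 reads), a match to AGO6, which in Arabidopsis binds siRNAs that direct DNA methylation. Its RPKM was 192 in roots, 162 in carpels, 142 in sepals, 96.5 in leaves, 68.0 to 83.7 in the petals, and 44.3 in stamens, where it was downregulated. The stamen library lay clear of the next lowest, since ventral petals over stamens was 1.53 (1.37 to 1.73), and roots over stamens was 4.33 (3.91 to 4.79). Unigene62990 (556 bp), with the same best protein, had the same order at the ends and a steeper range, with 155 RPKM in roots, 109 in carpels and 87.6 in sepals, 50.4 to 67.9 in petals and leaves, and 15.4 in stamens. Roots over stamens was 10.04 (7.41 to 13.9) for it. As 1 summed entry, the AGO6 matches gave 184 RPKM in roots and 38.0 in stamens.

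Among matches to AGO1, the main carrier of microRNAs, some were flatter than those to AGO6 and others were not. Unigene564 (900 bp, 2996 reads) had 46.7 RPKM in leaves, the single organ in which it was downregulated, and 64.0 to 77.5 in sepals, ventral petals, stamens, carpels and roots, with 85.5 in lateral and 101 in dorsal petals. Dorsal petals over leaves was 2.16 (1.84 to 2.54). Unigene61507 (509 bp, 2565 reads), matching a rice protein annotated as argonaute 1D, was highest in dorsal petals as well, at 192 RPKM against 127 in lateral petals, 124 in roots, 108 in carpels, 96.6 in sepals, 85.3 in ventral petals, 74.6 in stamens and 72.0 in leaves. Dorsal over lateral petals was 1.51 (1.32 to 1.73), beyond counting error.

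Sharing a best protein did not mean sharing a profile, and other matches to AGO1 ranged more widely. The rice argonaute 1D protein was the best match of 5 unigenes, of which 4 had at least 100 reads. Unigene205 resembled Unigene61507, with 117 RPKM in dorsal petals and 45.7 to 93.5 elsewhere. Unigene16153 had 20.9 RPKM in sepals, 21.2 in carpels and 20.9 in leaves, then 9.37 in roots and 2.42 in stamens, where it was downregulated, and its petals had 16.1 (dorsal), 10.6 (lateral) and 4.31 (ventral), an 8.75-fold range. Unigene11319, chosen like Unigene205 after the values were seen, had 15.1 RPKM in carpels and 13.9 in roots, against 7.12 or less elsewhere and 1.35 in leaves, an 11.2-fold range. The summed entry of all 5 was 46.1 RPKM in dorsal petals, 21.5 in leaves and 22.0 in stamens, and hides these differences.

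A step across the petal types was seen in another set of argonautes. Unigene17620 (1388 bp, 1645 reads), matching pea AGO2, which in Arabidopsis acts against viruses, had 24.8 RPKM in dorsal petals, 15.3 in the lateral and 11.9 in the ventral ones, where the intervals of the lateral and ventral petals overlapped. Its level was 51.4 RPKM in sepals, 39.1 in carpels, 37.4 in leaves, 13.5 in roots and 13.1 in stamens. Unigene68423, a match to a moss argonaute that was also named after its values were seen, had 19.9 RPKM in dorsal petals, 12.3 in the lateral and 6.59 in the ventral ones, and 34.6 in sepals, 29.2 in carpels, 27.8 in leaves, 9.27 in roots and 4.20 in stamens. For both, as for Unigene16153, the highest levels were those of sepals, carpels and leaves, while the lowest was in stamens for Unigene68423 and Unigene16153 and in ventral petals for Unigene17620.

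In the comparison of dorsal with ventral petals, which bears on the bilateral symmetry of the vetch flower, 4 of 44 members were 2-fold higher (7.44% of all unigenes) and 2 were 2-fold lower (10.4%). The 4 were all argonautes, namely Unigene16153 at 3.74 (2.45 to 5.89), Unigene68423 at 3.02 (2.02 to 4.62), Unigene61507 at 2.25 (1.93 to 2.62) and Unigene17620 at 2.09 (1.63 to 2.71). The 2 lower ones were the chromomethylases, with Unigene14763 at 0.359 (0.233 to 0.540) and Unigene60140 at 0.367 (0.0627 to 1.53), where the second interval includes equality. The median log2 ratio was 0.27 for members and 0.03 for all unigenes. The share of members 2-fold higher (9.09%) was thus near the background, and the share 2-fold lower (4.55%) was under it, each from few unigenes.

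Unigene71593 (1816 bp, 1561 reads), a match to a Zwille-like argonaute, the subfamily that maintains the shoot meristem in Arabidopsis, had 42.5 RPKM in carpels, 27.9 in roots, 20.8 in stamens, 10.4 to 16.9 in the petals, 14.0 in sepals and 5.15 in leaves. Stamens, low for many members, came next after carpels and roots here, and the unigene was named after its values were seen. Carpels over leaves was 8.26 (6.15 to 11.3). Argonaute calls were also made for Unigene15653, downregulated in roots at 3.63 RPKM against 5.70 to 14.7 elsewhere, and Unigene52050, downregulated in stamens at 1.11 RPKM against 3.08 to 13.4.

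**Figure D4:**
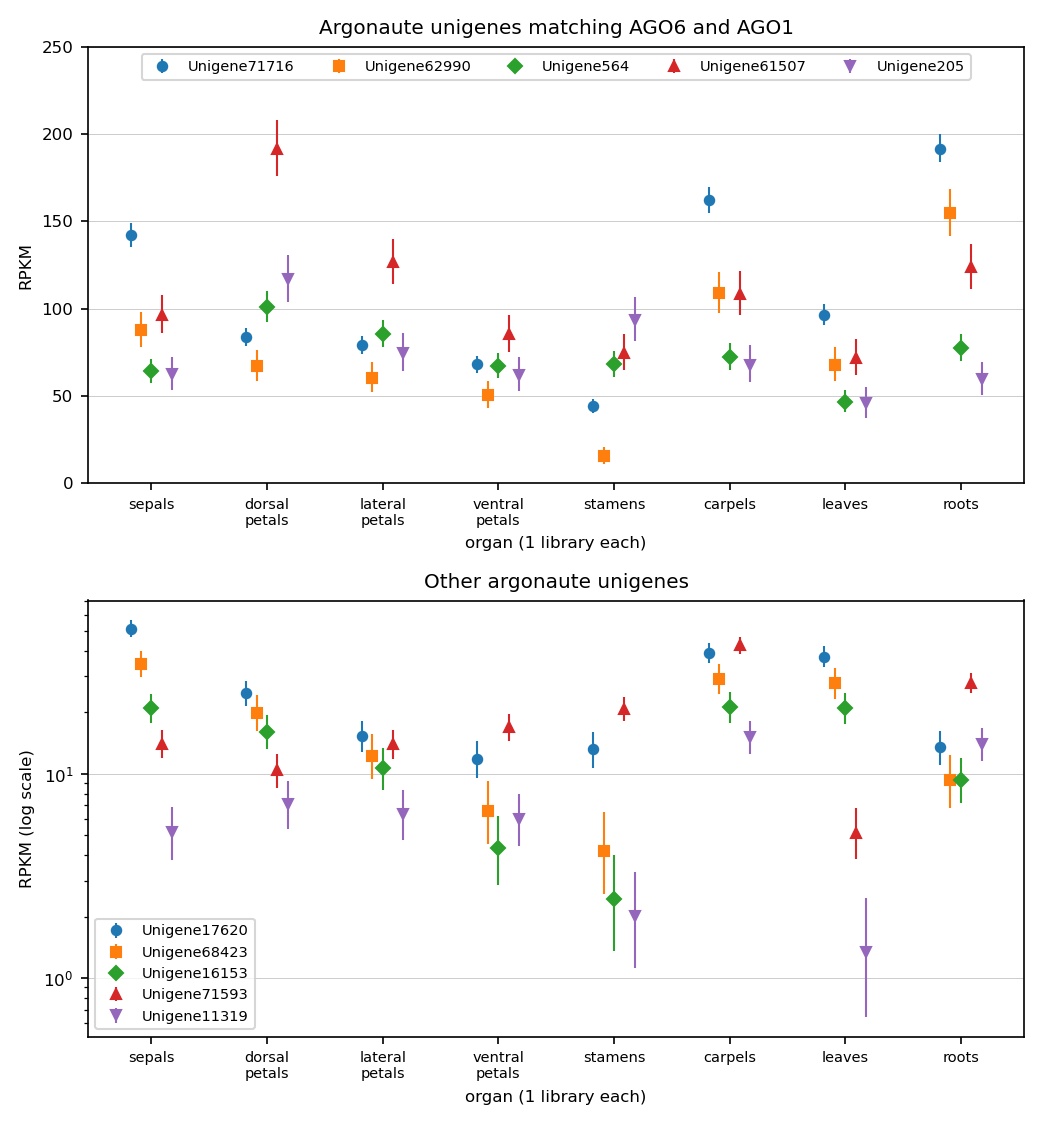
RPKM of 10 argonaute unigenes in each organ (1 library each) with exact 95% Poisson intervals. The upper panel, on a linear axis, holds the matches to AGO6 and the AGO1 matches Unigene564, Unigene61507 and Unigene205. The lower panel, on a log axis, holds the others, which include the AGO1 matches Unigene16153 and Unigene11319. Unigene71716 and Unigene62990 were lowest in stamens, at 44.3 RPKM for the first and 15.4 for the second, and Unigene61507 was highest in dorsal petals (192 RPKM). Unigene17620, Unigene68423 and Unigene16153 stepped down in dorsal, lateral and ventral petals in that order, but the lateral and ventral intervals of Unigene17620 overlapped.

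The summed dicer-like reads were lowest in carpels and stamens. The 16 unigenes took 89.7 RPM in carpels and 106 in stamens, and 157 to 209 in the other organs. With TMM factors stamens (106) were just below carpels (109). The sums lean on the most read members, and Unigene5033 alone held 33.1% of the family's reads. Of the 14 members with at least 100 reads, 4 were lowest in carpels (32.1% of all such unigenes) and 6 in stamens (11.4%). Several members thus do not share the pattern of the sums.

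DCL2, which in Arabidopsis cuts viral and other double-stranded RNA, was the best match of the 2 most read members. Unigene5033 (2120 bp, 2429 reads) had 4.42 RPKM in carpels, against 19.6 in roots, 25.7 to 32.5 in the petals, 27.0 in stamens, 29.4 in leaves and 31.5 in sepals. Carpels alone were low, and the next lowest library, roots, was 4.42-fold higher (3.26 to 6.10). The ratio of carpels to stamens was 0.164 (0.119 to 0.221).

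Unigene17564 (2818 bp, 1760 reads) was low in 2 organs, with 2.81 RPKM in carpels and 3.90 in stamens, against 13.7 to 20.4 in the others. Carpels and stamens did not differ beyond counting error (0.720, 0.474 to 1.08), and it was called downregulated in both. Stamens, with 27.0 RPKM for Unigene5033 and 3.90 for Unigene17564, set these DCL2 matches apart. Another match to DCL2, Unigene46081 (278 bp, 104 reads), was called downregulated in stamens at 4.02 RPKM but had 10.6 in carpels, from few reads.

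Low levels in carpels were also called for a pair of poplar dicer-like matches. Unigene12499 (195 reads) had 0.915 RPKM in carpels and 1.54 in stamens, against 6.76 to 11.1 elsewhere. Unigene55582 (137 reads) had no read in carpels, against 2.42 RPKM in stamens and 6.63 to 12.4 in the other organs. The sepal level was 8.66 times that of 3 reads in carpels, taken here as the upper limit that a count of 0 allows. This value leaves out the counting error in sepals.

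The remaining dicer-like members were not called downregulated in carpels. Unigene9659, a match to DCL4, which makes the siRNAs that act in trans on other transcripts, had 26.5 RPKM in roots, 18.5 in sepals, 14.9 in carpels and 7.98 to 11.1 elsewhere, and roots over sepals was 1.43 (1.16 to 1.76). Unigene15639 had 16.6 RPKM in roots and 5.91 to 10.1 elsewhere. Unigene2765, a match to DCL3, which cuts the siRNAs of RNA-directed DNA methylation, was highest in carpels at 15.1 RPKM, with 9.01 in sepals, 8.01 in roots and 1.38 to 5.50 elsewhere, and was named after its values were seen.

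Stamens and leaves were low for Unigene6747, a match to a moss DCL1 protein, with 2.12 RPKM in stamens and 1.66 in leaves against 6.05 to 13.0 elsewhere, and both were called downregulated. DCL1 makes microRNAs from their precursors, and the other match to it, Unigene59718 (110 reads), was downregulated in stamens at 1.20 RPKM against 3.22 to 8.86. Unigene67251 had 2 reads in stamens (0.478 RPKM), against 2.16 RPKM in leaves and 5.50 to 9.33 in the others. Unigene63988 was called there too, at 4.38 RPKM against 7.11 to 12.7. Unigene15895 was the only member with at least 100 reads that was enriched in any organ (4.63% of such unigenes were enriched in roots), at 10.1 RPKM in roots against 1.40 to 4.20 elsewhere, 2.41-fold over sepals (1.41 to 4.24).

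**Figure D5:**
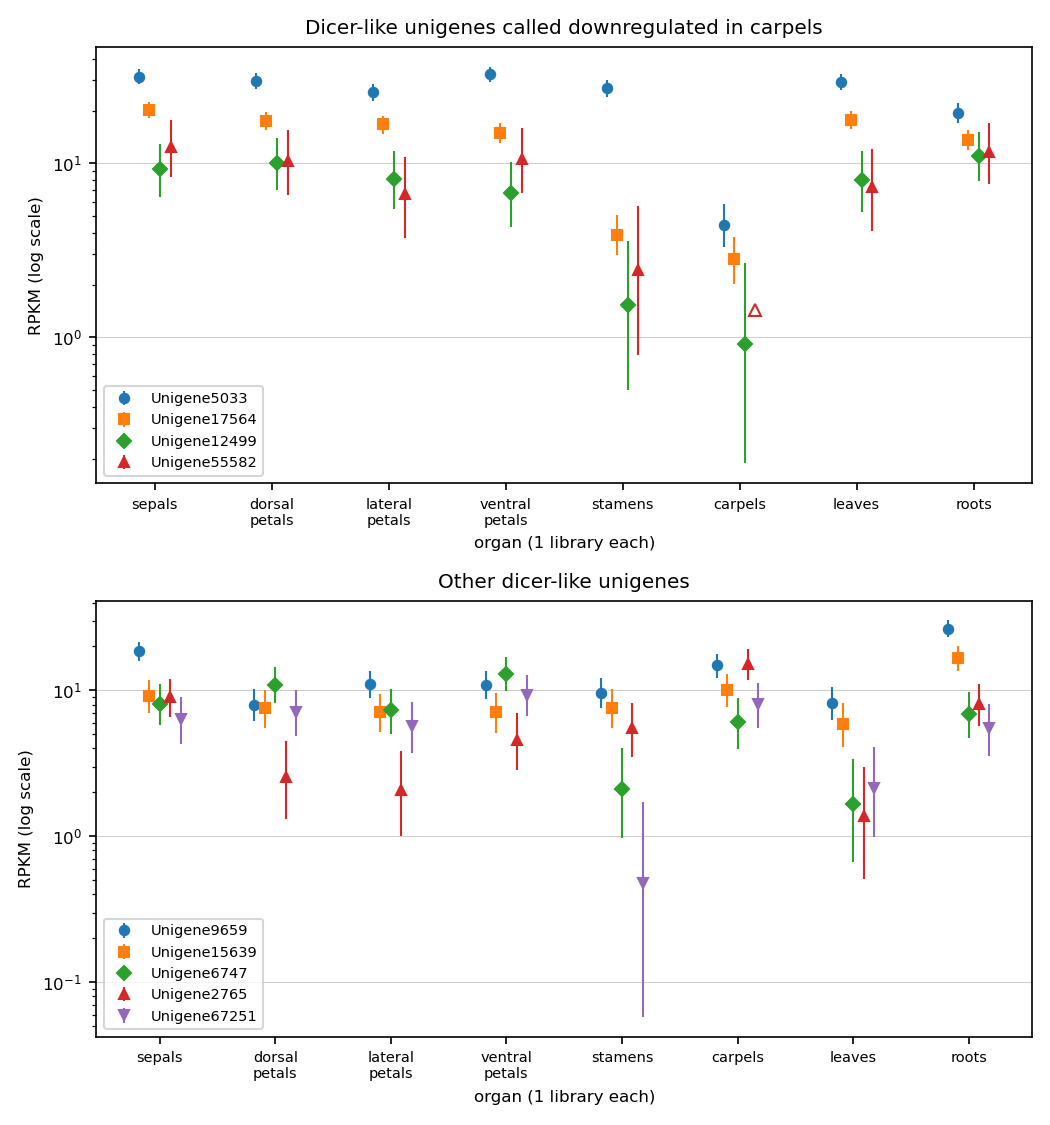
RPKM on a log axis of 9 dicer-like unigenes in each organ (1 library each) with exact 95% Poisson intervals; the upper panel holds those called downregulated in carpels, and the open triangle marks the level of 3 reads for Unigene55582, which had none in carpels. Unigene5033 was at 4.42 RPKM in carpels and 27.0 in stamens, while Unigene17564 was low in both, at 2.81 RPKM in carpels and 3.90 in stamens.

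RNA-dependent RNA polymerases had the fewest reads, 1521 over 10 unigenes. They took 41.4 RPM in carpels, 44.1 in leaves, 49.8 in roots and 50.1 in sepals, and 18.1 to 23.2 in the petals and stamens. With TMM factors leaves (57.1) came first. Unigene65106 (644 bp, 264 reads), a match to a cotton enzyme, had 22.1 RPKM in roots, 18.0 in carpels, 14.3 in sepals and 7.25 in leaves, against 2.64 to 3.50 in petals and 0.578 in stamens. Unigene63940 (592 bp, 177 reads), also matching cotton, had 14.0 RPKM in carpels, 13.7 in sepals, 12.4 in roots and 5.05 in leaves, and 1.15 to 2.05 in petals and stamens. These 2 unigenes were low in the 3 petal types and stamens alike, with carpels over stamens at 31.1 (8.26 to 262) for Unigene65106 and 8.89 (3.54 to 28.7) for Unigene63940.

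Unigene70656 (1296 bp, 761 reads) held 50.0% of the family's reads, and its best match was an RDR1 of the oomycete Phytophthora infestans with an E-value of 8e-06. It was highest in leaves at 24.1 RPKM, with 18.2 in sepals, 13.2 in roots, 8.75 to 11.9 in petals and stamens and 6.67 in carpels.

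Between pairs of organs, members tended to be higher in carpels than in stamens and in roots than in leaves. Of 44 members, 21 were over 2-fold higher in carpels than in stamens (22.1% of all unigenes were) and 6 were over 2-fold lower (37.7%), and the median log2 ratio was 0.81 for members and -0.42 for all unigenes. For roots over leaves, 22 were higher (33.5%) and 5 lower (21.3%), with a median of 1.01 for members and 0.44 for all. After TMM rescaling, which moved the median of all unigenes by 0.28 for carpels over stamens and by -0.44 for roots over leaves, 22 were higher (26.6% of all) and 5 lower (32.2%) in carpels than in stamens, and 14 higher (22.8%) and 8 lower (26.8%) in roots than in leaves. For carpels over leaves, 13 of 44 were higher (29.5%, against 29.9% of all unigenes) and 10 lower (22.7%, against 34%), with a median of 0.56 for members and -0.14 for all. For the mean of the 6 floral organs over the mean of leaves and roots, no member was 2-fold higher (23.1% of all unigenes) and 2 were lower (12.3%), with a median of -0.34 for members and 0.15 for all, where TMM moved the median of all unigenes by -0.15 and gave 5 lower (15.4% of all).

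Genes that work with the members differed in profile among themselves. Other pathway words matched 47 unigenes, 38 with at least 100 reads. Of these 38, 8 were enriched in carpels (6.35% of all unigenes with at least 100 reads) and 3 in roots (4.63%), and 6 were downregulated in stamens (5.7%), 4 in carpels (21.8%) and 3 in leaves (10.5%). Subunits of RNA polymerases IV and V, the plant enzymes that make the transcripts for siRNA-directed methylation, were matched by 15 unigenes. Of the 13 with at least 100 reads, 5 were enriched in carpels. All of these 5 but Unigene12672 matched the second largest subunit of RNA polymerase IV, and they may be pieces of 1 gene. The 5 are among the 8 carpel calls above, which may thus stand for fewer genes. Unigene12672, matching RNA polymerase IV, had 122 RPKM in carpels and 35.0 in roots, against 17.7 in sepals and 2.31 to 6.69 elsewhere. The most read of the 15, Unigene18154, was instead nearly even, at 16.7 to 24.3 RPKM except in leaves, where it was downregulated and lower. Unigene69072 was highest in leaves at 83.8 RPKM, against 22.7 to 51.2 elsewhere.

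Histone methyltransferases of the SUVH group were matched by 5 unigenes. The most read, Unigene17920, matching SUVH3, had 42.8 RPKM in roots and 12.2 to 22.3 elsewhere, without a call. Unigene67414, matching SUVH1, was enriched in carpels at 93.7 RPKM against 18.9 to 32.2, and Unigene17769 was enriched in roots at 80.5 RPKM against 6.85 to 28.6. SGS3, the partner of an RNA-dependent RNA polymerase, was matched by Unigene59551, enriched in roots at 43.2 RPKM against 4.45 to 18.8 elsewhere. HEN1, which protects small RNAs by methylation, was matched by Unigene68835, downregulated in leaves at 2.60 RPKM against 4.55 to 12.8. Among 9 double-stranded RNA binding unigenes, the most read, Unigene12903, was highest in stamens at 90.2 RPKM, against 51.5 in carpels and 16.5 to 47.5 in the other organs, without a call. Unigene17483 was enriched in carpels at 113 RPKM against 4.95 to 26.1, and Unigene9460 was downregulated in leaves at 8.07 RPKM against 11.9 to 25.8. Of 11 methyl-CpG-binding unigenes, the most read, Unigene71620, was downregulated in carpels at 7.93 RPKM against 28.1 to 45.7, while Unigene69318 (29.0 to 51.0 RPKM) and Unigene13375 (26.3 to 48.5 RPKM) were highest in carpels without a call. Words for SERRATE matched 1 unigene of another protein, and those for HYL1, HASTY, DDM1, VIM, MORC, DRD1 and DRM matched none, which says only that no best match in these tables carried the words.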

How the data were processed

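RNA from 8 organs of common vetch was sequenced as 1 library each. For every unigene of their assembly, the authors deposited raw counts of its uniquely aligned reads. The deposited RPKM divides them by unigene length and library total, and the deposited coverage gives the percent of each unigene under a read. The aligner was not given in the sources used here.

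Tables were merged on the unigene identifier, and missing entries counted as 0 reads. RPKM was recomputed from counts, with a largest relative difference of 5.58e-09 from the deposited values. Among members with at least 100 summed reads the coverage of the unigene had a median of 87.64% over members and organs and a lowest value of 7.61%. Organ calls followed the study's Ratio and Z-score. Fold comparisons used log2(RPKM + 0.1) on unigenes with at least 100 summed reads, which understates changes of low genes. Ratios printed with an interval are of RPKM itself. The call rules were tested on simulated data.

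The text names, in each of 6 families, the 5 members with the most reads if at least 100, every member with at least 100 reads and an organ call, and up to 3 unigenes of each other list by reads, with exceptions marked. Members and lists were chosen with earlier results of these data known. Alternatives were TMM factors, read filters, summed entries, floral organs only, another Ratio, pseudocount and a stricter membership. TMM factors came from edgeR 4.0.16 in R 4.3.3, figures from matplotlib 3.10.9, and intervals from scipy 1.17.1, run with pandas 2.3.3 and numpy 2.4.6 in Python 3.11.15. Sequences were not analysed here.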

Additional observations from a re-analysis of the deposited data

How the results depend on the processing

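Across 28 counts of members and 138 alternatives, 102 stayed within 1.5 times the count reported and 36 did not. Where the count reported was 0, a setting that can only remove calls had to give 0 again, so such cases show no stability. Those settings were at least 100 reads, the stricter membership, the Ratio above 4 and the Ratio against the lowest organ. With floral organs only, 5 members were enriched in sepals, 1 in ventral petals and 11 in carpels, and 1 was downregulated in sepals and 4 in dorsal petals. With TMM factors, 7 were enriched in carpels, 5 were 2-fold lower in floral than in vegetative organs, and 14 were higher and 8 lower in roots than in leaves. With at least 100 reads, 0 were enriched in carpels and 1 in roots, and 0 were downregulated in dorsal and 0 in lateral petals. With unigenes of the same best protein summed, 1 was enriched in roots and 0 were downregulated in dorsal petals, and with a Ratio above 4, 1 was enriched in roots. With downregulation judged against the lowest other organ, 1 member was called in dorsal petals, 0 in lateral petals, 7 in stamens, 5 in carpels, 0 in leaves and 0 in roots. Without the read filter, 38 were higher and 11 lower in carpels than in stamens, 27 and 21 in carpels than in leaves, 4 and 16 in floral than in vegetative organs, 13 and 6 in dorsal than in ventral petals, and 39 and 9 in roots than in leaves, with 18 highest in carpels and 5 high in both carpels and roots. With a pseudocount of 1, 1 was lower in floral than in vegetative organs and 1 in dorsal than in ventral petals. The cause of these changes was not tested beyond the change in unigenes or organs compared. The result on both carpels and roots and its alternatives were chosen after the values were seen. The stricter membership left out 4 members, whose best match named an associated protein or came from Phytophthora. It was tried on the 16 counts of enriched or downregulated members and changed none of them by more than 1.5 times. With so few members removed, it could move these counts little. No paired analysis was possible because each organ had 1 library, and no library could be left out of an organ. The median member had 110 summed reads, and the 37 under 100 give no usable profile.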
